A study of Mus musculus with 2 samples.

Results

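The 39 genes described here are 7 genes of the FOS and JUN families, 26 other early response genes and 6 heat shock genes. They were taken by symbol from the 32285 genes of the count matrices, and all 39 were found. They were measured in single cells of the periodontal ligament (PDL), the connective tissue that holds a tooth root in its bony socket, of male C57BL/6J mice aged 8 weeks. In the orthodontic tooth movement (OTM) group a mesial, that is forward-directed, force of 10 g had acted on the maxillary left first molar over 6 days, and the control group was the unloaded right side. Tissue from extracted roots and sockets was pooled from 5 mice per group and digested with collagenase and then trypsin, and each group is 1 library. Whether both sides came from the same animals is not given in the sources used here. With 1 library per group there is no spread between animals, no test was run, and every interval below covers counting error only. An interval therefore says nothing about variation between mice or between cells.

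Immediate early genes are switched on within minutes of a stimulus by transcription factors that are already present in the cell. FOS and JUN proteins pair to form AP-1, a transcription factor that binds DNA next to many genes of growth, wound response and inflammation. EGR, NR4A and KLF proteins, ATF3 and MYC are further transcription factors of this early wave, while DUSP phosphatases, ZFP36 proteins and SOCS3 are feedback proteins that shut signals off again. Heat shock genes are driven mainly by HSF1, which is released when unfolded proteins occupy the chaperones that hold it back. HSPA1A and HSPA1B are the inducible HSP70 chaperones, HSPA8 is the HSP70 made in unstressed cells, HSP90AA1 is a cytosolic HSP90, and DNAJB1 and HSPH1 are partners that drive the HSP70 cycle. Both gene sets are known to be induced by enzymatic tissue dissociation, and in the PDL early genes are also known to respond to mechanical strain. How much of any level below came from handling was not tested, since both libraries went through the same digestion.

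The promoters of Hspa1a and Hspa1b are shown because the heat shock readout rests largely on this pair and because the pair is nearly the same sequence. In the RefSeq promoter table (GRCm38.p6), 32 of the 39 genes had an entry. The last 150 bases before the start of each gene are printed on the gene's own strand, the minus strand of chromosome 17, with a heat shock element in capitals.

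Hspa1a (chr17:34972157-34972306): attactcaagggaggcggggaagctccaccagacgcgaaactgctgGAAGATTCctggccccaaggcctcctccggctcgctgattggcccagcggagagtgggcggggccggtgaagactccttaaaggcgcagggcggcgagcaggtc

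Hspa1b (chr17:34959239-34959388): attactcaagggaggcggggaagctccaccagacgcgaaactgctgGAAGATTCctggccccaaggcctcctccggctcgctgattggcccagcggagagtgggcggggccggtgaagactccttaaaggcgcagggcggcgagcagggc

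The 2 stretches are identical at 149 of 150 bases, and at 247 of the 250 bases before the start. The heat shock element begins 104 bases before the start in both. It was searched as GAANNTTC and as TTCNNGAA, which read the same on both strands, in the 250 bases before each start. Among the 4 heat shock genes with an entry, 3 held it (Hspa1a, Hspa1b and Hsph1), against 14.5% of the 27025 genes of the table. The transcripts of Hspa1a and Hspa1b were not compared here, so how well UMIs (unique molecular identifiers, each counting 1 captured mRNA) divide between the 2 genes is uncertain. Hspa8 and Hsp90aa1 have processed copies elsewhere in the genome, and their counts are uncertain too.

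A heat shock element was also found before Jun and Fosl2, 2 of the 6 FOS and JUN genes with an entry, and before Egr2. The 4 stretches that follow show 2 other elements, each found before a few of the other early genes. Capitals mark a CArG box, the binding site of serum response factor, in the first pair and a cyclic AMP response element, TGACGTCA, in the second pair.

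Egr2 (chr10:67537787-67537816): gttcctcagtCCATATATGGgcagcgacgt

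Zfp36 (chr7:28379267-28379296): ccaggccgccCCATAAAAGGagaaagctcc

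Btg2 (chr1:134079304-134079331): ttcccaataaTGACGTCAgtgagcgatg

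Dusp1 (chr17:26508598-26508625): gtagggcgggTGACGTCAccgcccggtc

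Egr2 lies on the plus strand and the other 3 on the minus strand. A CArG box was found before Egr2, Zfp36 and Dusp5, which is 3 of the 22 other early genes with an entry, against 1.62% of all genes. The cyclic AMP response element was found before Btg2, Dusp1, Maff and Ppp1r15a, 4 of 22, against 1.77% of all genes. Both elements read the same on both strands. The AP-1 site, TGANTCA on both strands, was found before 1 of the 32 genes (Zfp36l1), against 7.82% of all genes, and no stretch shown holds a second of these 4 elements. A match is a description of the letters and not a measured binding site.

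There were 369 barcodes (5723299 UMIs) in the control and 1539 barcodes (36010801 UMIs) in the OTM library, and no barcode occurred in both. After filtering, 348 control cells (median 14877 UMIs) and 1412 OTM cells (median 19583 UMIs) remained. Cells were grouped into classes by marker genes, with the 39 genes left out of the clustering, and a class is called "like" a cell type because its name rests on transcripts alone. A level in CPM is the share of a class's UMIs that a gene took, times 1000000. A gene was counted as past 2-fold where at least 5 UMIs were expected in each library at equal CPM, and such genes are called countable below. Classes with at least 20 cells in each library were compared: fibroblast-like (34 control and 445 OTM cells), osteoblast lineage-like (33 and 114), epithelial-like (20 and 126), macrophage or monocyte-like (34 and 58), neutrophil-like (33 and 148), and 2 unnamed clusters. Cluster 3 (86 and 95 cells) is a stromal cluster led by Pcp4, Mfap4 and Angpt4, with Wif1 and Grem1 among its 10 leading genes, that scored highest for fibroblasts but below the limit for a name. Cluster 9 (50 and 21 cells) held a median of 744.5 UMIs per control cell and 2144 per OTM cell.

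Across all cells, the FOS and JUN sum and the inducible heat shock sum were lower in the OTM library, while the sum of the 2 constitutive heat shock genes was nearly level. The 7 FOS and JUN genes summed to 8473 CPM in control cells and 5532.5 CPM in OTM cells (log2 ratio -0.61, 95% interval -0.63 to -0.60). Fos (ENSMUSG00000021250, chromosome 12, 85473890 to 85477273, plus strand, GRCm38), the founding early gene, was at 2492 and 1508 CPM, and Jun (ENSMUSG00000052684, chromosome 4, 95049034 to 95052222, minus strand), its partner, was at 1609 and 995 CPM. Both were lower in the OTM library by a similar ratio (-0.72, -0.75 to -0.70, and -0.69, -0.73 to -0.66). The 4 inducible heat shock genes summed to 3241 and 2247 CPM (-0.53, -0.55 to -0.51), while Hspa8 and Hsp90aa1 together were at 2802 and 2829 CPM (0.01, -0.01 to 0.04). The pair did not move alike: Hspa8 was at 1814 and 1976 CPM (0.12, 0.09 to 0.15) and Hsp90aa1 at 987 and 853 CPM (-0.21, -0.25 to -0.17).

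Of the 39 genes, 1 was past 2-fold in all cells, and that was Nr4a1, an orphan nuclear receptor of the early wave, at 328 and 154 CPM (log2 ratio -1.09, -1.17 to -1.01). The background over all 15781 countable genes was 5.76% at least 2-fold higher and 9.52% at least 2-fold lower. The median log2 ratio was -0.58 over the 39 genes and -0.0037 over all countable genes. Next lowest were Dusp2, a nuclear MAP kinase phosphatase of leukocytes (183 and 101 CPM, log2 ratio -0.86, -0.96 to -0.76), and Gadd45b, a stress-induced signalling protein (757 and 418 CPM, -0.86, -0.91 to -0.81). Of the 39 intervals, those of Fosl1, Rhob and Hspa8 lay wholly above 0. Fosl1, which encodes the FOS relative FRA1, was at 32.0 and 44.5 CPM (0.48, 0.25 to 0.71). Rhob, an early-induced small GTPase, was at 153 and 177 CPM (0.20, 0.10 to 0.31).

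The library-wide values depend on the mix of cells. Cluster 3 held 49.2% of the FOS and JUN UMIs of the control library and 8.88% of those of the OTM library. Its share of all UMIs was also larger in the control, with 1816585 of 5593726 UMIs against 1949412 of 35518568 in the OTM library. When the control class levels were weighted by the class UMI shares of the OTM library, over 15 classes, the FOS and JUN log2 ratio was -0.42 in place of -0.61, and that of the 6 heat shock genes -0.06 in place of -0.25. Nr4a1, the 1 gene past 2-fold in all cells, went from -1.09 to -0.62 and so was no longer past 2-fold. Dnajb1 went from -0.69 to -0.06 and Dusp2 from -0.86 to -0.12 under the same weighting. Zfp36l1, which shortens the life of mRNAs with AU-rich elements, was at -0.61 and -0.60, and Klf6, a wound-response transcription factor, went from -0.08 to 0.18.

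The classes differed widely in level within each library. In control cells cluster 3 had the highest FOS and JUN sum of the compared classes, 12825 CPM, followed by macrophage or monocyte-like cells at 8367 CPM (8091 to 8651) and fibroblast-like cells at 8070.5 CPM (7856 to 8289), whose intervals overlapped. Osteoblast lineage-like cells were at 7484 CPM, epithelial-like cells at 5296 CPM and neutrophil-like cells at 2956 CPM. Mural-like cells (pericytes and smooth muscle) were at 14669 CPM (13844 to 15531), but these were 6 cells. Ranked over 7 compared units, cluster 3 was the highest for 21 of the 39 genes, 18 of them with an interval clear of the next unit, and macrophage or monocyte-like cells for 13, 10 of them clear. In the OTM library, where 11 units had at least 20 cells, the lead was spread: mural-like cells were highest for 12 genes (5 of them clear of the next unit), neutrophil-like cells for 8 (5 clear), endothelial-like cells for 7 (6 clear) and cluster 3 for 6 (5 clear). How often each unit was highest over all genes was not computed, so these counts have no background. Whether an interval is clear also depends on depth: control cluster 3 held 1816585 UMIs and control macrophage or monocyte-like cells 413269.

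The genes for which neutrophil-like cells were highest in the OTM library were Fosl1, Fosl2, Junb, Ier5, Klf2, Btg2, Zfp36 and Dusp1. Junb, a JUN relative known from myeloid cells, was highest in macrophage or monocyte-like cells in the control library (2855 CPM) and in neutrophil-like cells in the OTM library (2414 CPM). Fos was highest in stroma in both libraries, with 4157 CPM in cluster 3 and 3055 CPM in fibroblast-like cells of the control library. In the OTM library the same classes were at 2326 and 2405 CPM. Fosb, whose product pairs with JUN as FOS does, was highest in cluster 3 in both libraries (1842 and 1349 CPM).

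The inducible heat shock genes were low in granulocyte, mast, red cell and B or plasma cell classes in both libraries, with sums from 22.3 to 306 CPM. The B or plasma cell-like class is mixed. Its cluster i9 (2 control and 9 OTM cells) was led by Siglech and Cox6a2, with Vpreb1 also among its leading genes. The next marker score of i9 was that of dendritic cells. In the control library they summed to 5736 CPM in cluster 3, 3669 CPM in epithelial-like, 3102 CPM in osteoblast lineage-like, 2526 CPM in fibroblast-like and 1021 CPM in macrophage or monocyte-like cells, but to 39.1 CPM in neutrophil-like cells. Hspa1a was at 0 UMIs in the control erythroid-like (12 cells), granulocyte progenitor-like (5 cells) and mast cell or basophil-like cells (3 cells), and at 1.52, 5.56 and 2.70 CPM in the same classes of the OTM library (28, 14 and 12 cells). Hspa8 was present in those OTM cells, at 1344, 974 and 2464 CPM. Endothelial-like cells, with 14 control and 204 OTM cells, had an inducible sum of 2808 and 2209 CPM.

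**Figure D1:**
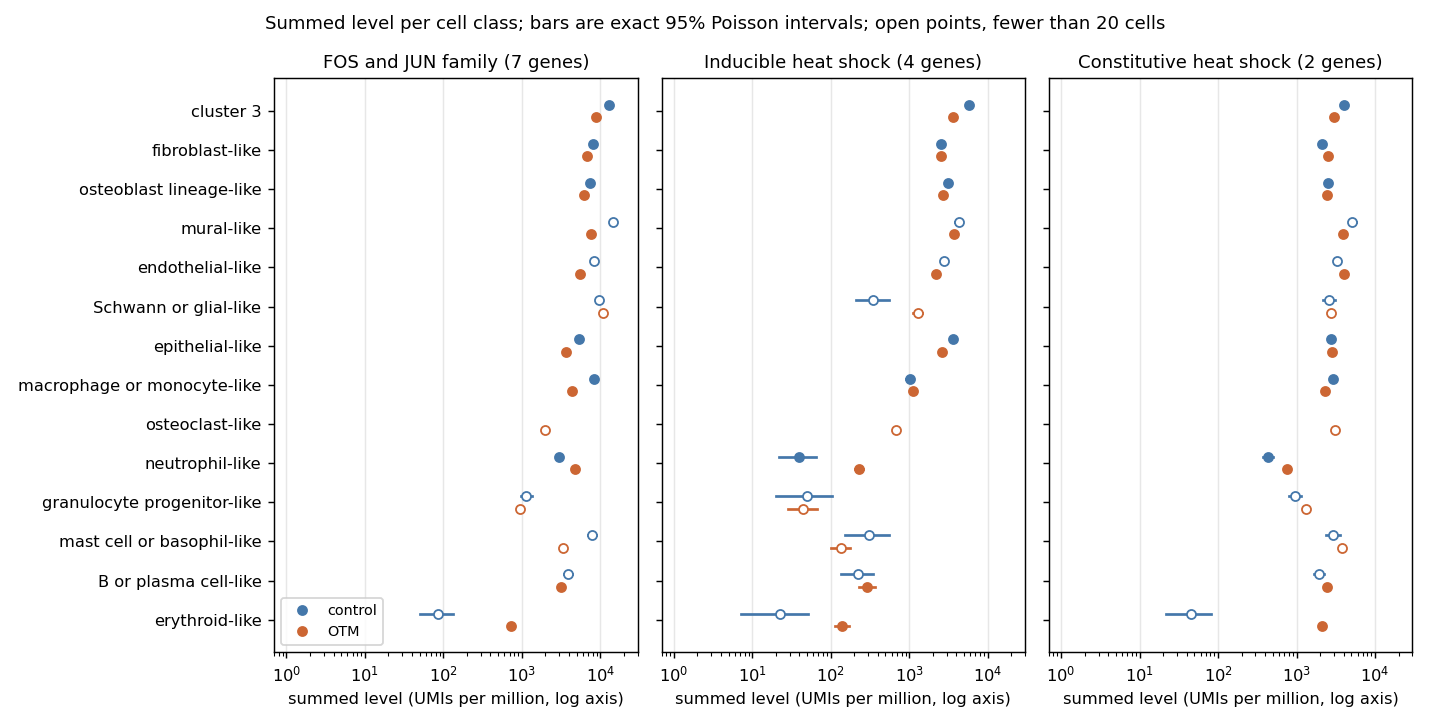
Summed level in CPM (log axis) of the FOS and JUN family, the inducible and the constitutive heat shock genes in each class, control in blue and OTM in orange, with exact 95% Poisson intervals and open points for fewer than 20 cells. Inducible heat shock levels reach 5736 CPM in control cluster 3 and 39.1 CPM in control neutrophil-like cells, while the FOS and JUN levels of the same 2 groups are 12825 and 2956 CPM.

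In cluster 3, which carried 49.2% of the FOS and JUN UMIs of the control library, all genes but Dusp1, Dusp5, Dusp6 and Fosl1 had a ratio below 0 and none was past 2-fold in either direction, with 4.53% of all 12213 countable genes at least 2-fold higher and 5.21% at least 2-fold lower. The median over the 39 genes was -0.43, and over all countable genes -0.01. Fos was at 4157 and 2326 CPM (log2 ratio -0.84, -0.89 to -0.78), Nr4a1 at 495 and 276 CPM (-0.84, -0.999 to -0.69), and Hspa1b at 1743 and 897 CPM (-0.96, -1.04 to -0.87). These were the 3 lowest. Jund, the JUN gene least dependent on a stimulus, was at 1809 and 1640 CPM (-0.14, -0.21 to -0.07), and Klf6 at 483 and 473 CPM (-0.03, -0.17 to 0.10). At the other end stood Dusp6, a feedback phosphatase of ERK, at 41.8 and 59.0 CPM (0.50, 0.07 to 0.93), Fosl1 at 22.6 and 29.2 CPM (0.37, -0.23 to 0.99) and Dusp5, the nuclear counterpart of Dusp6, at 46.8 and 49.8 CPM (0.09, -0.35 to 0.53). The EGR family, zinc finger factors downstream of ERK, summed to 2002 and 1476 CPM (-0.44, -0.51 to -0.37), the NR4A family to 874 and 572 CPM (-0.61, -0.72 to -0.50), and Hspa8 and Hsp90aa1 to 4082 and 3041 CPM (-0.42, -0.47 to -0.38).

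Fibroblast-like cells, led in their largest cluster by Aspn and Postn, had ratios nearer 0. Together the FOS and JUN genes were at 8070.5 and 6692.5 CPM (-0.27, -0.31 to -0.23), and the heat shock genes at 4635 and 5034 CPM (0.12, 0.07 to 0.17). Fosl1 was the 1 gene past 2-fold, at 14.98 and 30.8 CPM with 10 control UMIs (1.04, 0.15 to 2.11). Among all 9649 countable genes of this class 7.12% were at least 2-fold higher and 4.38% at least 2-fold lower. Dnajb1 was at 153 and 236 CPM (0.63, 0.34 to 0.93), and Atf3, a stress-induced partner of JUN, at 249 and 383 CPM (0.62, 0.40 to 0.86). Lowest were Nr4a1 at 169 and 98.0 CPM (-0.79, -1.07 to -0.50), Nr4a2 at 189 and 120 CPM (-0.65, -0.91 to -0.37) and Gadd45b at 745 and 505 CPM (-0.56, -0.69 to -0.42). The FOS and JUN sum had the opposite direction in cluster 0, which held 31 of the 34 control cells and 220 of the 445 OTM cells. There it was 6680.2 and 7944.5 CPM (0.25, 0.20 to 0.30). The other clusters of the class, 2 and 15, held 2 and 1 control cells and could not be compared. The control class was at 8070.5 CPM but its cluster 0 at 6680.2 CPM, so the few control cells of clusters 2 and 15 raised the class level. In the OTM library the class (6692.5 CPM) was below cluster 0 (7944.5 CPM). The class ratio therefore rests in part on those few control cells, and the mix of clusters differed between the libraries. Socs3, a feedback inhibitor of cytokine signalling, was at 463 and 616 CPM in the class (0.41, 0.25 to 0.58) and at 372 and 639 CPM in cluster 0 (0.78, 0.57 to 1.00).

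In osteoblast lineage-like cells none of the 39 genes was past 2-fold, where 8.43% of 9902 genes were at least 2-fold higher and 3.17% at least 2-fold lower. Summed, the FOS and JUN genes were at 7484 and 6197 CPM (-0.27, -0.31 to -0.23) and the heat shock genes at 5654 and 5177 CPM (-0.13, -0.17 to -0.08). Dusp5 was at 18.2 and 31.3 CPM (0.78, 0.02 to 1.64) and Dusp6 at 63.6 and 89.7 CPM (0.50, 0.08 to 0.93), the 2 highest, followed by Fosl1 at 27.2 and 31.6 CPM (0.21, -0.44 to 0.92). The lowest were Nr4a1 at 472 and 251 CPM (-0.91, -1.08 to -0.74), Maff, a small partner of AP-1 type factors, at 163 and 98.6 CPM (-0.73, -1.02 to -0.44), and Gadd45b at 884 and 553 CPM (-0.68, -0.80 to -0.55). Cluster 7 held 22 of the 33 control cells and cluster 10 held 58 of the 114 OTM cells. Within cluster 7 the FOS and JUN sum was nearly level, 7782 and 7588 CPM (-0.04, -0.08 to 0.01).

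In epithelial-like cells 5 genes were at least 2-fold lower and 1 was at least 2-fold higher, of 38 countable, beside 8.27% and 8.7% of 7813 genes. Both mRNA decay genes were among those lower: Zfp36, which encodes tristetraprolin, was at 264 and 108 CPM (-1.28, -1.58 to -0.98), and Zfp36l1 at 359 and 139 CPM (-1.36, -1.62 to -1.10). Egr3 was at 54.6 and 20.5 CPM (-1.41, -2.07 to -0.70), Gadd45b at 304 and 131 CPM (-1.22, -1.49 to -0.94), and Btg2, an antiproliferative factor, at 271 and 131 CPM (-1.04, -1.33 to -0.75). The gene that was higher was Dusp2, with 0 control UMIs and 98 OTM UMIs, at least 2.495-fold higher against a floor of 3 UMIs over the class. Dusp5 was at 40.4 and 70.9 CPM (0.81, 0.12 to 1.61), and Nr4a3, with 3 control UMIs, had a log2 ratio of 0.93 (-0.67 to 3.24). Egr2, with 7 and 43 UMIs, was not countable. The FOS and JUN sum was 5296 and 3690.0 CPM (-0.52, -0.58 to -0.46). It rests on 20 control cells, and among cells thinned to 1500 UMIs each the log2 ratio of this sum was 0.09.

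The NR4A receptors, which respond to calcium and cyclic AMP signals as well as to stress, had a similar summed ratio in 3 stromal classes, to which Nr4a1 and Nr4a2 contributed most UMIs. Their sum was at 874 and 572 CPM in cluster 3, 382 and 244 CPM in fibroblast-like cells (-0.64, -0.83 to -0.45) and 696 and 462 CPM in osteoblast lineage-like cells (-0.59, -0.73 to -0.45). Nr4a1 was the lowest or next to lowest of the 39 genes in cluster 3, fibroblast-like and osteoblast lineage-like cells, with log2 ratios between -0.91 and -0.79. The single receptors did not share a ratio: in osteoblast lineage-like cells Nr4a2 was at 193 and 179.9 CPM (-0.10, -0.35 to 0.15) and Nr4a3 at 30.6 and 31.6 CPM (0.04, -0.58 to 0.71), and in fibroblast-like cells Nr4a3 was at 23.97 and 26.0 CPM (0.12, -0.60 to 0.94). Among KLF genes, Klf2 and Klf4, factors known from endothelium and epithelium, were at 455 and 256 CPM and at 545 and 319 CPM in all cells (-0.83, -0.89 to -0.77 and -0.77, -0.83 to -0.72). Of the remaining early genes, Ier2 was at 449 and 291 CPM in all cells (-0.63, -0.69 to -0.56), Ier3, which modulates cell survival, at 644 and 604 CPM (-0.09, -0.14 to -0.04), Ier5, which aids HSF1, at 238 and 197 CPM (-0.27, -0.35 to -0.18), and Myc at 140 and 88.5 CPM (-0.66, -0.77 to -0.54). Among the MAP kinase phosphatases Dusp2 was lower, as given above, and the intervals of the other 3 included 0. Dusp1, the main early phosphatase, was at 390 and 391 CPM (0.00, -0.06 to 0.07), Dusp5 at 49.5 and 49.9 CPM (0.01, -0.17 to 0.20) and Dusp6 at 51.0 and 50.3 CPM (-0.02, -0.20 to 0.17). Ppp1r15a, which restores translation after stress, was at 350 and 222 CPM (-0.66, -0.73 to -0.59) and Socs3 at 411 and 352 CPM (-0.22, -0.28 to -0.16). These values in all cells also depend on the mix of cells. At the OTM class mix Klf2 was at -0.36, Myc at -0.07 and Socs3 at -0.07, while Dusp6 was at -0.53.

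**Figure D2:**
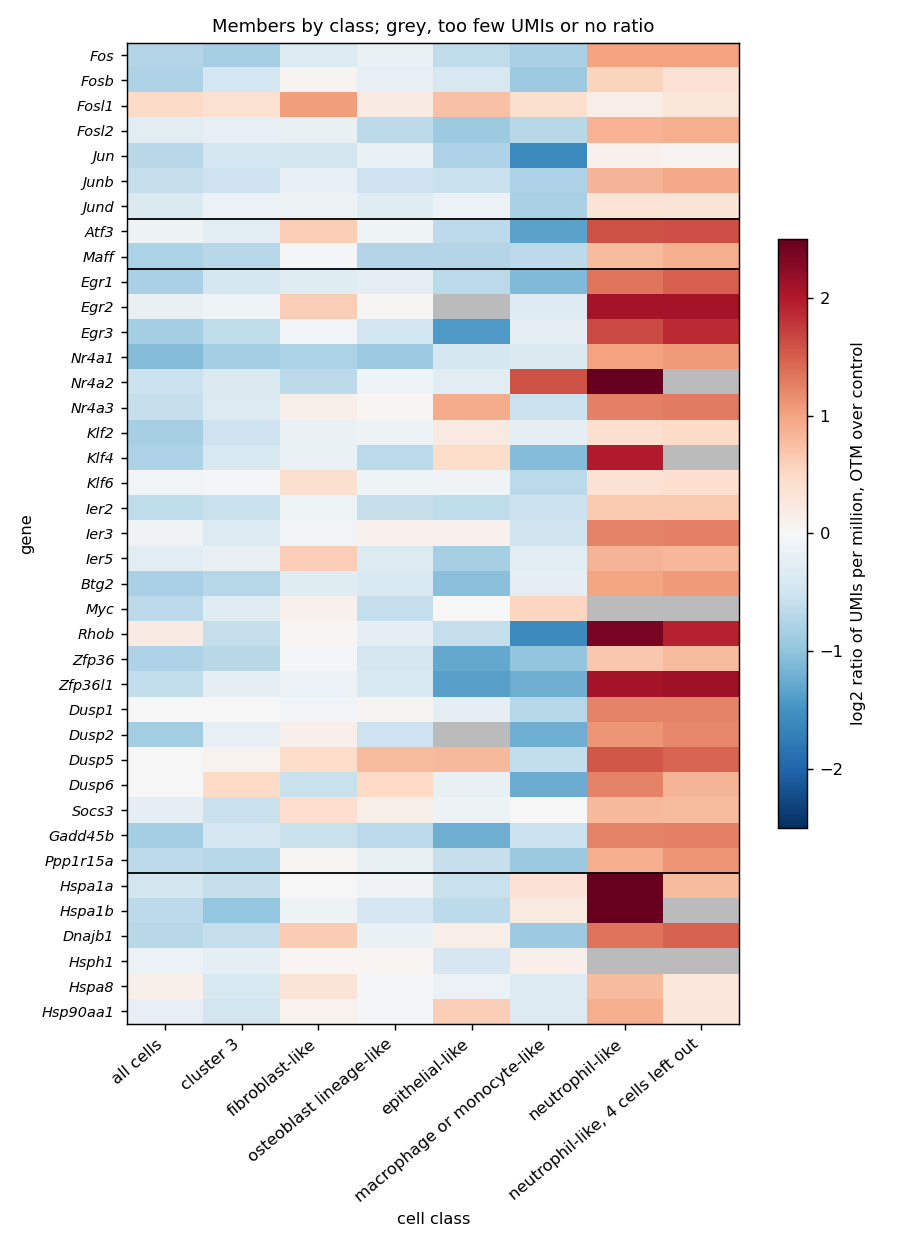
Log2 ratio of CPM, OTM over control, for each of the 39 genes (rows, by role, heat shock genes at the bottom) in all cells and in 6 compared classes, with the neutrophil-like class repeated after 4 cells were left out. Red is higher in OTM, blue is lower, grey is too few UMIs or no ratio, and the colour scale ends at 2.5 in each direction. The neutrophil-like column is red or grey throughout, and the macrophage or monocyte-like column is mostly blue.

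Neutrophil-like cells had most of the 39 genes higher in the OTM library. Of 37 countable genes 19 were at least 2-fold higher and 0 at least 2-fold lower. The background in this class was high, with 18.1% of 4995 genes at least 2-fold higher and 3.34% at least 2-fold lower. The median was 1.01 over the countable members and 0.19 over all countable genes. Junb was at 1335 and 2414 CPM (0.85, 0.72 to 0.99), Fos at 216 and 432 CPM (1.00, 0.66 to 1.35), and the FOS and JUN sum at 2956 and 4721 CPM (0.68, 0.58 to 0.77). Jun (232 and 249 CPM, 0.10, -0.25 to 0.46), Fosl1 (102 and 114 CPM, 0.16, -0.37 to 0.72) and Jund (652 and 822 CPM, 0.33, 0.13 to 0.54) were the 3 lowest. All 3 EGR genes, all 3 NR4A genes and all 4 phosphatases were past 2-fold. Myc (1 and 16 UMIs) and Hsph1 (0 and 12 UMIs) were not countable.

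Within the EGR family Egr1 was at 112 and 284 CPM (1.34, 0.88 to 1.84), Egr2 at 3 and 37 UMIs (2.08, 0.42 to 4.42) and Egr3 at 31.3 and 97.6 CPM (1.64, 0.78 to 2.64). Dusp1 was at 446 and 1048 CPM (1.23, 1.00 to 1.47), Zfp36l1 at 36.5 and 154 CPM (2.08, 1.29 to 2.98), Atf3 at 117 and 354 CPM (1.59, 1.14 to 2.07) and Rhob at 20.9 and 107 CPM (2.37, 1.34 to 3.61). Nr4a2 had 1 control UMI and 30 OTM UMIs (3.37, 0.78 to 8.72). The most abundant other members were Ier3 at 446 and 1051 CPM (1.24, 1.01 to 1.48), Zfp36 at 652 and 1040 CPM (0.67, 0.48 to 0.88), Klf6 at 529 and 679 CPM (0.36, 0.13 to 0.59) and Gadd45b at 269 and 635 CPM (1.24, 0.94 to 1.55).

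The class held 2 clusters in different proportions, and the sum of the 39 genes was higher in cluster 6 than in cluster 8 in both libraries. Cluster 6, led by Acod1, Csf3r and Il1b, was 12 of the 33 control cells and 97 of the 148 OTM cells. Cluster 8, led by the granule genes Ltf, Mmp8, Ngp and Camp, was 21 and 51 cells. The 39 genes summed to 22137 and 21670.0 CPM in cluster 6 (log2 ratio -0.03, -0.11 to 0.05), but to 5383 and 8558 CPM in cluster 8 (0.67, 0.59 to 0.75). The FOS and JUN sum was 6608 and 5908 CPM in cluster 6 (-0.16, -0.31 to -0.01) and 2272 and 3689 CPM in cluster 8 (0.70, 0.58 to 0.82). Dusp1 was at 2115 and 1917 CPM in cluster 6 and at 133 and 294 CPM in cluster 8, and Egr1 at 496 and 528 CPM and at 40.2 and 71.9 CPM. Junb was at 3436 and 3109 CPM in cluster 6 (-0.14, -0.35 to 0.07) and at 941 and 1810 CPM in cluster 8 (0.94, 0.76 to 1.13). Atf3 was at 694 and 701 CPM in cluster 6 (0.02, -0.45 to 0.51). Of the countable members 4 of 31 were at least 2-fold higher in cluster 6, beside 14.4% of all countable genes there, and 12 of 32 in cluster 8, beside 12.9%. The 6 heat shock genes did not have the same order of the clusters in both libraries. In the control library they summed to 380 CPM in cluster 6 and 489 CPM in cluster 8. That control value of cluster 6 rests on few UMIs (22 without the cells with markers of another type, described below). In the OTM library without such cells they summed to 714 CPM in cluster 6 and 538 CPM in cluster 8. Cluster 6 of the control library is only 12 cells.

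**Figure D3:**
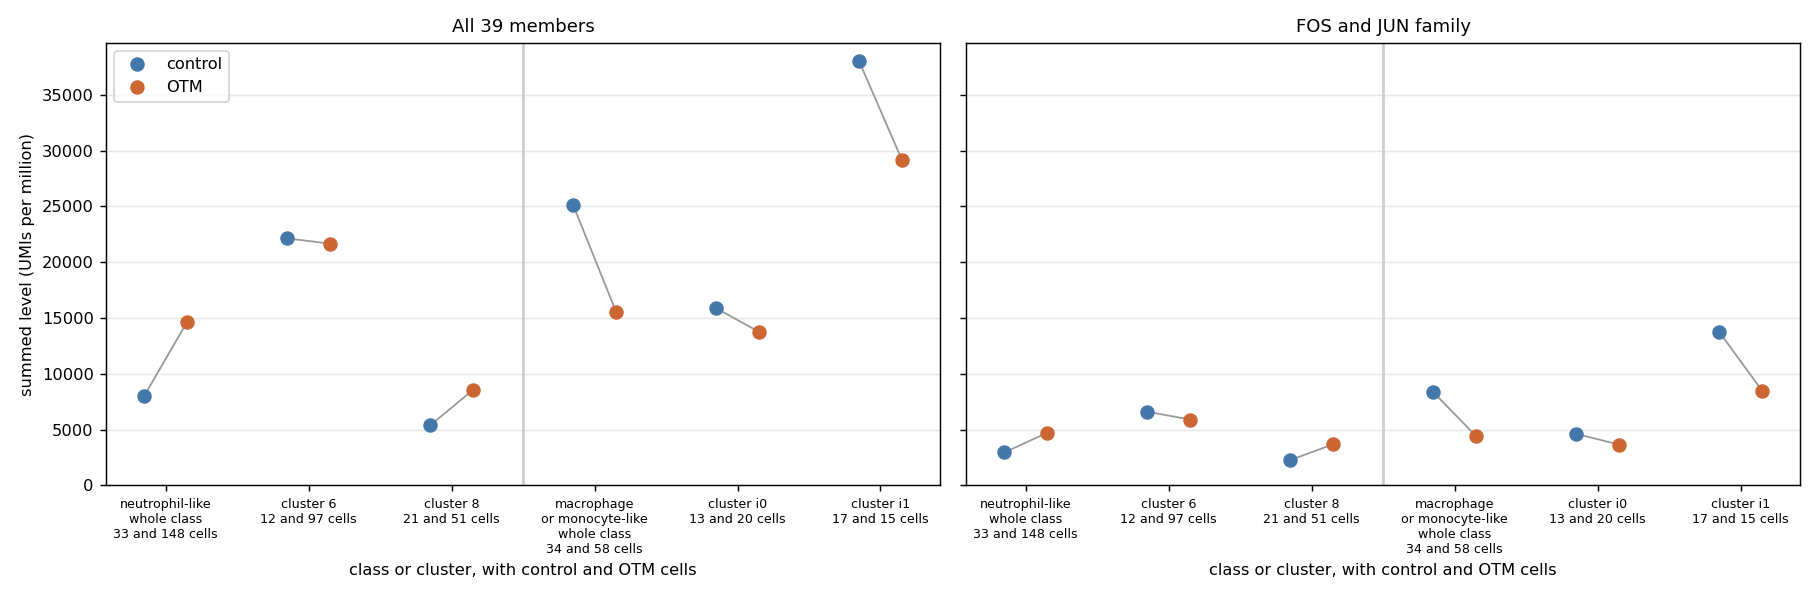
Summed level in CPM (linear axis from 0) of all 39 genes (left) and of the FOS and JUN family (right) in neutrophil-like and macrophage or monocyte-like cells as whole classes and in the single clusters with at least 10 cells in both libraries, control in blue, OTM in orange, 1 point per library. In cluster 6 the 2 points of the 39 genes are at 22137 and 21670.0 CPM, although the whole class goes from 8027 to 14653 CPM.

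Most inducible heat shock UMIs of the OTM neutrophil-like class came from 3 cells. Hspa1a (ENSMUSG00000091971, chromosome 17, 34969190 to 34972156, minus strand) had 4 control UMIs and 99 OTM UMIs (3.09, 1.69 to 4.99), and Hspa1b (ENSMUSG00000090877, chromosome 17, 34956436 to 34959238, minus strand) 2 and 78 (3.74, 1.84 to 6.81). These were the highest ratios of the class with that of Nr4a2. Markers of endothelial cells were present beside them: the 12 endothelial markers together reached 46.9 CPM among control cells and 691 CPM among OTM cells, with 9 of 12 at 0 in the control and 0 of 12 at 0 in the OTM class. Of the 772 endothelial marker UMIs of the OTM class, 721 lay in 3 of its 148 cells, and the same 3 cells held 168 of the 256 inducible heat shock UMIs. Without cells that had at least 0.4% of their UMIs from endothelial or fibroblast markers (these 3 and 1 control cell), Hspa1a was at 10.52 and 18.2 CPM (0.79, -0.81 to 2.81), and the 4 inducible genes at 36.8 and 88.8 CPM (1.27, 0.45 to 2.20). The constitutive pair was then at 437 and 529 CPM (0.28, 0.02 to 0.54), where it had been at 433 and 767 CPM.

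Without those cells the FOS and JUN sum was at 2912 and 4769 CPM (0.71, 0.62 to 0.81), Egr1 at 103 and 289 CPM (1.49, 1.01 to 2.01) and Atf3 at 113 and 345 CPM (1.61, 1.15 to 2.10). At least 2-fold higher were 16 of 34 countable genes, beside 11.98% of all 4534 countable genes. Some early genes rested largely on the cells left out. Klf4 had 2 and 3 UMIs left of 2 and 23 (log2 ratio -0.80, -3.92 to 2.78), Nr4a2 had 1 and 11 left of 1 and 30, and Myc had 1 and 0 left of 1 and 16. Dusp6 was then at 15.8 and 28.2 CPM (0.84, -0.46 to 2.40), and the ratio of Rhob went from 2.37 to 1.92.

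In macrophage or monocyte-like cells most of the 39 genes were lower in the OTM library. Of the 39 genes 8 were at least 2-fold lower and 1 at least 2-fold higher, beside 7.99% and 17.3% of 7495 genes. The median was -0.61 over the 39 genes and 0.19 over all countable genes. Jun was at 1658 and 549 CPM (-1.59, -1.76 to -1.43), Rhob at 237 and 79.0 CPM (-1.59, -2.03 to -1.14) and Atf3 at 1154 and 458 CPM (-1.33, -1.52 to -1.15), the 3 lowest. Egr1 was at 1236 and 572 CPM (-1.11, -1.29 to -0.94). Dusp2 (404 and 173 CPM), Dusp6 (62.9 and 26.7 CPM), Zfp36l1 (440 and 190 CPM) and Klf4 (477 and 225 CPM) were the others. Nr4a2 was the gene that was higher, at 29.0 and 87.9 CPM with 12 control UMIs (1.60, 0.72 to 2.60), and Myc (31.5 and 45.4 CPM) and Fosl1 (33.9 and 44.4 CPM) had intervals that included 0. The FOS and JUN sum was 8367 and 4422 CPM (-0.92, -0.98 to -0.86).

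The class was mixed as well. Cluster i1, led by Mrc1, Cd163 and Stab1, was 17 of the 34 control cells and 15 of the 58 OTM cells. Cluster i0, led by Ccl12, Ccl8 and C1q genes, was 13 and 20, and cluster i3, led by F10, F13a1 and Ccr2, was 4 and 23. The FOS and JUN sum was lower in OTM in both of the larger ones, at 13766 and 8503 CPM in i1 (-0.70, -0.81 to -0.58) and 4622 and 3662 CPM in i0 (-0.34, -0.45 to -0.22). In i0 it was 4622 and 3078 CPM (-0.59, -0.71 to -0.46) without the cells that carried fibroblast markers, described below. Of the countable members 3 of 38 were at least 2-fold lower and 4 higher in i1, beside 9.15% and 12.5% of all countable genes, and 3 of 37 were lower and 12 higher in i0, beside 8.29% and 24.4%. Single genes did not all follow the sum. Jun was at 3921 and 2645 CPM in i1 (-0.57, -0.77 to -0.37) but at 60.7 and 159 CPM in i0 (1.39, 0.51 to 2.40), where its control level rests on 12 UMIs. Atf3 was lower in both, at 2040.5 and 839 CPM in i1 (-1.28, -1.63 to -0.95) and 662 and 475 CPM in i0 (-0.48, -0.79 to -0.16). The i0 counts of genes past 2-fold and the i0 values of Jun and Atf3 include the cells that carried fibroblast markers. Without those cells 16 of the 20 OTM cells of i0 remained, and these counts and values were not computed for them.

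The inducible heat shock genes of these cells did not share a direction. Their sum was at 1021 and 1129 CPM (0.14, -0.02 to 0.31). Hspa1a was at 491 and 629 CPM in the class (0.36, 0.13 to 0.59) and Dnajb1, the HSP40 partner, at 179 and 94.8 CPM (-0.92, -1.37 to -0.46). Fibroblast markers were also higher in the OTM class: they summed to 559 and 4446 CPM, with 3 of 15 at 0 in the control and 1 of 15 in the OTM class, and 6 of the 58 OTM cells held 3927 of their 4502 UMIs and 444 of the 1143 inducible heat shock UMIs. Without these 6 cells Hspa1a was at 491 and 442 CPM (-0.15, -0.40 to 0.10), the inducible sum at 1021 and 806 CPM (-0.34, -0.52 to -0.16), and the FOS and JUN sum at 8367 and 4279 CPM (-0.97, -1.03 to -0.90). In cluster i1, which held none of the 6, Hspa1a was at 1017 and 2717 CPM (1.42, 1.14 to 1.70) and Hspa1b at 666 and 1544 CPM (1.21, 0.86 to 1.57). In i0 Hspa1a was at 162 and 556 CPM (1.78, 1.25 to 2.36) with those cells and at 162 and 118 CPM (-0.45, -1.12 to 0.24) without them. Why these cells carry fibroblast markers was not tested.

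In stroma and epithelium the inducible heat shock sum had its lowest ratio in cluster 3, at 5736 and 3588 CPM (-0.68, -0.72 to -0.63), followed by epithelial-like cells at 3669 and 2605 CPM (-0.49, -0.57 to -0.42). In cluster 3 Hspa1a was at 2904 and 1915 CPM (-0.60, -0.66 to -0.54), Dnajb1 at 814 and 540 CPM (-0.59, -0.71 to -0.48) and Hsph1 at 274 and 235 CPM (-0.22, -0.41 to -0.03). The ratio of Hsph1 was lower in epithelial-like cells, at 202 and 151 CPM (-0.42, -0.74 to -0.08). In fibroblast-like cells Hspa1a was at 1468 and 1456 CPM (-0.01, -0.10 to 0.08), and Hspa8 (ENSMUSG00000015656, chromosome 9, 40800984 to 40810087, plus strand) was at 1348 and 1692 CPM (0.33, 0.23 to 0.43). Epithelial-like cells had Hspa1a at 1624 and 1111 CPM (-0.55, -0.66 to -0.43) but Hsp90aa1 at 513 and 787 CPM (0.62, 0.42 to 0.82). The direction in epithelial-like cells depended on how cells were weighted: the ratio of the 6 heat shock genes was -0.25 from summed UMIs, 0.25 as a mean over cells and 0.19 with cells thinned to 1500 UMIs. Among thinned cells 52.6% of 19 control (exact 95% interval 28.9% to 75.6%) and 69.4% of 121 OTM cells (60.4% to 77.5%) had an Hspa1a UMI. Before thinning the shares were 60% and 91.3%, at median depths of 14008 and 34944 UMIs. Of thinned erythroid-like cells, with median depths of 19638 and 15012 UMIs before thinning, 0 of 12 control and 0 of 27 OTM cells had one, which allows shares of up to 25% and 11.1%. In osteoblast lineage-like cells Hspa1a was at 1658 and 1558 CPM (-0.09, -0.17 to -0.01) and Hspa8 at 1747 and 1683 CPM (-0.05, -0.13 to 0.03).

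To compare cells of different depth, each cell was thinned to 1500 UMIs, which left out 49 control and 42 OTM cells with fewer. In cluster 3 the median cell then held 15 FOS and JUN UMIs in the control and 11 in the OTM library, and 5.5 and 2 inducible heat shock UMIs. Macrophage or monocyte-like cells had a median of 12 and 7 FOS and JUN UMIs, neutrophil-like cells 5 and 7, osteoblast lineage-like cells 9 and 7, and fibroblast-like cells 8 and 8. Epithelial-like cells had 3 and 5, against the direction of their summed CPM. Erythroid-like cells, looked at as a possible measure of free RNA, had a median of 0 in both libraries. Their summed levels were above 0 and differed between the libraries. The FOS and JUN genes were at 84.8 and 735 CPM, the inducible heat shock genes at 22.3 and 139 CPM and the constitutive pair at 44.6 and 2120 CPM. Free RNA cannot be told apart from transcripts of the red cell precursors themselves, so these cells do not measure it. Whether free RNA differed between the libraries was not tested. The inducible heat shock median was 0 in neutrophil-like cells of both libraries, and the 10% of OTM neutrophil-like cells with the most held 80.5% of those UMIs. In the OTM library that share was 70.2% in macrophage or monocyte-like, 51.0% in endothelial-like and 44.7% in fibroblast-like cells and 44.5% in cluster 3. The OTM neutrophil-like cells had a mean of 0.28 such UMIs, with none in 123 of 146 cells. The class includes the 3 cells with endothelial markers.

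**Figure D4:**
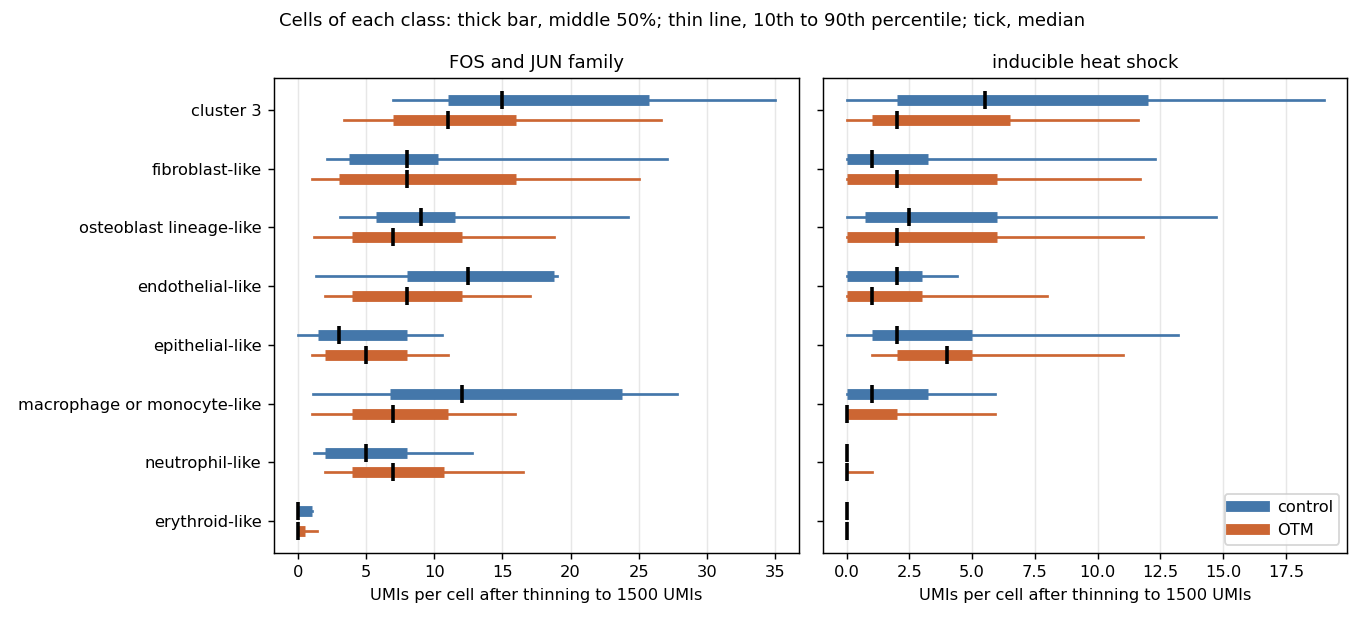
UMIs per cell of the FOS and JUN family (left) and the 4 inducible heat shock genes (right) after each cell was thinned to 1500 UMIs, by class, control in blue and OTM in orange; the tick is the median, the thick bar the middle 50% of cells and the thin line the 10th to 90th percentile. Control cluster 3 has a median of 15 FOS and JUN and 5.5 inducible heat shock UMIs and OTM cluster 3 of 11 and 2, where OTM epithelial-like cells have 5 and 4. Erythroid-like cells have medians of 0.

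Across thinned cells of a class, cells high in the FOS and JUN sum tended to be high in the inducible heat shock sum too. Pearson's r between the 2 sums was 0.66 over 86 control and 0.70 over 95 OTM cells of cluster 3, 0.65 over 434 OTM fibroblast-like cells and 0.67 over 113 OTM osteoblast lineage-like cells. It was 0.53 in 52 macrophage or monocyte-like, 0.51 in 121 epithelial-like, 0.39 in 201 endothelial-like and 0.22 in 146 neutrophil-like cells of the OTM library. Of these neutrophil-like cells 123 held no inducible heat shock UMI, so their r cannot be set against that of the other classes. Hspa1a and Hspa1b had an r of 0.71 in control cluster 3, and Fos and Jun one of 0.52. These are descriptions over cells that share a library and a depth.

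Related genes outside the 39 were taken from lists chosen with earlier results of these data known. Of 31 countable genes on a list of other early, ERK and SRF response genes, 0 were at least 2-fold higher and 1 at least 2-fold lower in all cells (median -0.15), beside 5.76% and 9.52% of all countable genes, and that was Batf, an AP-1 type factor of leukocytes, at 58.6 and 22.4 CPM (-1.39, -1.57 to -1.20). In neutrophil-like cells 10 of 22 of them passed 2-fold upward and 0 downward (median 0.84), beside 18.1% of all countable genes upward. Among them was Cebpb, a myeloid transcription factor, at 928 and 2411 CPM (1.38, 1.22 to 1.54). Fibroblast-like cells had 4 of 31 at least 2-fold higher, beside 7.12% of all countable genes, and Ccn2, a matricellular target of YAP and SRF, was at 71.9 and 378 CPM (2.40, 1.99 to 2.84). In epithelial-like cells 5 of 25 were at least 2-fold higher, beside 8.7%, Errfi1, a feedback inhibitor of the EGF receptor, at 19.0 and 68.9 CPM (1.86, 0.87 to 3.08) among them.

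Both lists of other chaperones had a median ratio above 0 in all cells. The 20 further cytosolic chaperones and HSF1 targets had a median of 0.20, with 1 at least 2-fold higher (Hspb8, 16.6 and 37.1 CPM, 1.16, 0.85 to 1.48) and 0 lower. The 13 chaperones and response genes of the endoplasmic reticulum had a median of 0.32, with none past 2-fold. In fibroblast-like cells the latter summed to 3152 and 4218 CPM (0.42, 0.36 to 0.48), and Hspa5, the HSP70 of that compartment, was at 837 and 1104 CPM (0.40, 0.28 to 0.52). The small heat shock gene Hspb1 was at 290 and 128 CPM in cluster 3 (-1.18, -1.40 to -0.96). Of 10 reference genes, 9 were countable in neutrophil-like cells, and the sum of all 10 was lower in OTM (16512 and 13352 CPM) although Eef1a1 was at 370 and 786 CPM and Ppia at 138 and 327 CPM.

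Cluster 9, whose barcodes are shallow, differed between libraries in most genes. All 22 of its countable genes among the 39 were at least 2-fold higher in OTM, beside 71.6% of all 1737 countable genes at least 2-fold higher and 10.7% at least 2-fold lower, and all 8 countable reference genes were higher too. Its control cells held 47605 UMIs in all.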

How the data were processed

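Single-cell RNA-seq was run on 1 control and 1 OTM library of mouse PDL (10x Chromium 3' v3.1, per the labels' protocols), each pooled from 5 mice. The deposited files hold UMI counts per gene and barcode, whole numbers with no normalization; the authors name Cell Ranger 7.0.1, Seurat and the build mm10/GRCm38, with no order or role, per the submitters' processing notes. Whether intronic reads were counted is not given in the sources used here.

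Barcodes with at least 200 genes and at most 20% mitochondrial UMIs were kept. Both libraries were clustered together (scanpy 1.11.5, leidenalg 0.10.2; scaled to 10000, 2000 variable genes without the 39 genes, 30 components, 15 neighbours, resolution 1.0, seed 0), immune clusters were clustered again (resolution 0.8; their names begin with i), and clusters were named from 23 marker lists where the marker score reached 0.5 with at least 3 markers detected. Scrublet called 2 control and 8 OTM doublets, which were kept and left out in an alternative. Counts were summed per class and library and given as CPM. Intervals are exact at 95% (Poisson for a level, conditional binomial for a ratio; scipy 1.17.1, numpy 2.4.6, pandas 2.3.3, Python 3.11.15), cover counting error only and treat UMIs as independent. A gene was called past 2-fold only where at least 5 UMIs were expected in each library; a count of 0 was set to a floor of 3 UMIs. The code was tested on simulated data. For comparisons across cells, each cell was thinned to 1500 UMIs.

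The members and lists were chosen with earlier results of these data known. Values are given for the most abundant member of each role and for the 3 highest and 3 lowest ratios of each class; other members named were chosen after their values were seen. Promoter sequences are from RefSeq (GRCm38.p6) and gene positions from GENCODE M21 (GRCm38). Alternatives changed the barcode filter, doublets, clustering, weighting, depth, count minimum and fold.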

Additional observations from a re-analysis of the deposited data

Results flagged for a closer look

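The log2 ratio of 7 genes had opposite signs, each past 2-fold, in neutrophil-like and in macrophage or monocyte-like cells. The difference was not tested, since each group is 1 library. Of all countable genes, 18.1% were at least 2-fold higher in neutrophil-like and 7.99% at least 2-fold lower in macrophage or monocyte-like cells. The share of all genes with opposite directions in the 2 classes was not computed, so the count of 7 has no background to be set against. The difference between the classes was 2.453 for Egr1 (1.34 in neutrophil-like and -1.113 in macrophage or monocyte-like cells), 2.925 for Atf3 (1.592 and -1.333), 3.293 for Zfp36l1 (2.077 and -1.216) and 3.951 for Rhob (2.365 and -1.586). It was 2.328 for Dusp2 (1.102 and -1.225), 2.469 for Dusp6 (1.231 and -1.238) and 3.064 for Klf4 (1.982 and -1.082). Without the cells that carried endothelial or fibroblast markers, the values were 1.492 and -1.103 for Egr1, 1.609 and -1.528 for Atf3, 2.12 and -1.555 for Zfp36l1, 1.921 and -1.455 for Rhob, 1.203 and -1.149 for Dusp2 and 0.84 and -1.069 for Dusp6. Klf4 was at -0.797 and -1.342, so its signs were no longer opposite. Both classes were mixtures of clusters in different proportions in the 2 libraries, and several of these directions did not hold in the single clusters with at least 10 cells in each library. Among neutrophil-like cells Egr1 was at 0.09 in cluster 6 and 0.84 in cluster 8, Atf3 at 0.02 and 2.48, Zfp36l1 at 0.78 and 1.76, Rhob at 0.97 and 2.70, and Dusp2 at -0.23 and 0.25. Among macrophage or monocyte-like cells Egr1 was at 0.41 in cluster i0 and -0.37 in i1, Klf4 at 1.15 and -0.48, Zfp36l1 at 0.23 and -0.82, Rhob at 1.65 and -1.82, and Dusp6 at -0.64 and 0.25. Atf3 (-0.48 and -1.28) and Dusp2 (-1.74 and -0.59) were below 0 in both. All of these i0 values include the OTM cells that carried fibroblast markers. The values of clusters 6 and 8 likewise include the cells that carried endothelial or fibroblast markers. With cells thinned to 1500 UMIs, Dusp2 was at 0.23 in macrophage or monocyte-like cells, and Rhob and Klf4 were at -0.15 and -2.15 in neutrophil-like cells.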

How the results depend on the processing

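No paired analysis was possible because each group is 1 library. Of the summed ratios and counts of genes past 2-fold, 74 alternative values were close to the reported one, 91 moved and 15 changed sign; of the single-gene values 1843 were close, 887 moved and 18 changed sign. Single clusters, the OTM class mix, leaving out cluster 9 and leaving out cells with markers of another type were added after seeing the data. Values below are log2 ratios, and the cause of each change was not tested.

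In all cells the FOS and JUN ratio (-0.61) and the heat shock ratio (-0.25) were -0.64 and -0.27 with a stricter barcode filter (500 genes, 10% mitochondrial), -0.60 and -0.23 without one, -0.26 and -0.0069 as means over cells, -0.44 and -0.16 thinned, and -0.42 and -0.056 at the OTM class mix. In cluster 3 (-0.52 and -0.57) they were -0.45 and -0.48 with the stricter filter, -0.58 and -0.62 without one and -0.35 and -0.44 with each library clustered alone; FOS and JUN was -0.55 as a mean over cells, and heat shock -0.49 with the members used in clustering and -0.49 thinned.

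In fibroblast-like cells FOS and JUN (-0.27) was 0.048 without doublets, 0.070 with the members used in clustering, 0.20 as a mean over cells, 0.12 thinned and 0.25 in cluster 0, but -0.42 with the stricter filter, -0.042 without one and -0.64 when cells were classed one by one by their marker scores (own scores). Heat shock (0.12) was -0.034 with no filter, -0.69 with own scores, 0.011 with the stricter filter, 0.28 as a mean and 0.31 thinned. In osteoblast lineage-like cells FOS and JUN (-0.27) was -0.13 with the stricter filter and with none, -0.053 without doublets, -0.23 with the members used, -0.33 thinned, -0.36 with the median of all genes set to 0 and -0.036 in cluster 7. Heat shock (-0.13) was 0.020 as a mean, 0.053 in cluster 10, -0.047 with the stricter filter, -0.28 with none, -0.24 without doublets, -0.073 with the members used, -0.58 with own scores, -0.22 with the median at 0 and -0.20 in cluster 7. In epithelial-like cells FOS and JUN (-0.52) was 0.087 thinned, -0.69 with the stricter filter, -0.30 with own scores, -0.73 clustered alone, -0.17 as a mean and -0.41 with the median at 0. Heat shock (-0.25) was 0.25 as a mean, 0.19 thinned, -0.35 with the stricter filter, -0.044 with own scores, -0.47 clustered alone and -0.13 with the median at 0. The 5 lower genes (8.27% of all countable genes) were 2 with own scores (7.84%) and as means (12.6%), 1 thinned (6.84%) and 0 at a 3-fold limit (1.91%).

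In macrophage or monocyte-like cells FOS and JUN (-0.92) ranged over -1.15 with the stricter filter, -1.21 with none, -1.13 without doublets, -1.22 with own scores, -1.14 clustered alone, -0.72 as a mean, -1.11 with the median at 0, -0.70 in cluster i1 and -0.34 in i0. Heat shock (-0.20) was 0.41 in i1, 0.39 in i0 (-0.19 there without marked cells), -0.094 clustered alone, -0.38 with the median at 0 and -0.39 without marked cells. The 8 lower genes (7.99% of all countable genes) were 14 with the stricter filter (7.5%), without doublets (7.47%) and clustered alone (8.15%), 17 with no filter (7.89%), 16 with own scores (9.28%), 4 as means (8.87%), 5 thinned (9.67%), 13 with the median at 0 (11.3%), 3 in i1 (9.15%), 3 in i0 (8.29%) and 2 at 3-fold (2.54%). In neutrophil-like cells FOS and JUN (0.68) was -0.16 in cluster 6, 0.50 with no filter, 0.58 with own scores, 0.54 clustered alone, 0.45 as a mean, 0.38 thinned and 0.49 with the median at 0. Heat shock (1.08) was 0.67 without doublets, 0.48 with own scores, 0.83 clustered alone and 0.38 without marked cells. It was 0.76 in cluster 8 (0.14 there without marked cells, -0.15 to 0.43) and 1.65 in cluster 6 (0.89 there without marked cells, 0.27 to 1.59). The 19 higher genes (18.1%) were 5 thinned (13.3%), 12 in cluster 8 (12.9%), 4 in cluster 6 (14.4%) and 9 at 3-fold (8.49%).

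Single genes that changed sign in macrophage or monocyte-like cells were Nr4a2 (-0.15 with no filter), Dusp2 (0.23 thinned), Dusp6 (0.25 in i1), and in i0, with the cells that carried fibroblast markers included, Jun (1.39), Egr1 (0.41), Klf4 (1.15), Zfp36l1 (0.23) and Rhob (1.65). In neutrophil-like cells they were Klf4 (-2.15 thinned, -0.80 without marked cells), Rhob (-0.15 thinned), Egr2 (-2.47) and Egr3 (-0.013) in cluster 8, and in cluster 6 Nr4a1 (-0.51), Nr4a3 (-0.23), Dusp1 (-0.14), Dusp2 (-0.23) and Gadd45b (-0.13). The single-gene values of clusters 6 and 8 include the marked cells. Clustering each library alone gave no control fibroblast-like or osteoblast lineage-like class, and classes from own scores hold no cluster 3. Depth limits genes with few control UMIs, above all in the 33 neutrophil-like and 20 epithelial-like control cells.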
